A study of Mus musculus with 10 samples.

Results

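The heterotrimeric G protein subunits and the proteins that limit their signals were followed through a mouse acute myeloid leukaemia (AML) grown in immunocompetent and in immunodeficient hosts. The set comprised 38 of the 38215 genes of the deposited table, chosen by gene symbol: 11 Gα genes, 5 Gβ genes, 9 Gγ genes, 10 genes of regulators of G protein signalling (RGS proteins), and 3 genes of the receptor-silencing machinery, the receptor kinase Adrbk1 (GRK2) and the β-arrestins Arrb1 and Arrb2. The rule used no measured value, but the members were chosen with earlier results of these data known.

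The leukaemia was made by putting the fusion oncogene AML1-ETO and NrasG12D into lineage-depleted bone marrow cells with the retroviral vector MSCV-IRES-GFP, so GFP marks cells that carry the vector. It was passed once through immunodeficient Rag2-/-γc-/- mice, hosts without T, B or NK cells, and then given to secondary recipients that were either C57BL/6J (5 libraries, replicates 1, 3, 4, 5 and 6) or Rag2-/-γc-/- (5 libraries, replicates 7 to 11). Each library held poly(A) RNA of GFP+ spleen cells of a secondary recipient with AML. By this account both groups carried both oncogenes and a first passage in Rag2-/-γc-/- mice, and the host genotype is the labelled difference between them. Neither the age and sex of the mice nor the number of primary leukaemias behind the recipients is given in the sources used here.

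In the textbook cycle, a seven-helix receptor that has bound its ligand makes a Gα subunit exchange GDP for GTP, and Gα and the paired Gβγ dimer then act on separate effectors. Gαs raises and Gαi lowers cyclic AMP, Gαq opens the phospholipase C pathway, and Gα12 and Gα13 act on the actin cytoskeleton. RGS proteins speed GTP hydrolysis by Gα and end the signal, while receptor kinases and arrestins silence the receptor; in leukocytes the pathway is best known for chemokine-directed migration through Gi.

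Library totals ran from 28157745 to 62461126 expected counts. On the first principal component of log CPM (46.4% of the variance), Rag2-/-γc-/- libraries 7, 8 and 9 scored 49.6 to 61.6, apart from libraries 10 (-4.88) and 11 (8.73) of the same hosts and from the C57BL/6J libraries (-57.5 to -20.2). C57BL/6J library 1 stood apart on the third component (-57.4, against 11.5 to 20.6 in the other 4 of its group) and had 1.34% mitochondrial counts, against 2.91 to 4.002% in the other 9. All 6 listed markers of leukaemic myeloid cells (Ptprc, Sfpi1, Cebpa, Kit, Cd34, Itgam) were measured. Their summed level was 1499 to 2056 CPM in C57BL/6J and 1876 to 2512 CPM in Rag2-/-γc-/- libraries. Most of it came from Ptprc, Sfpi1 and Itgam. Kit was at 0.163 to 0.434 CPM in Rag2-/-γc-/- and Cebpa at 1.03 to 4.96 CPM in C57BL/6J libraries. All 8 listed dendritic cell markers were also measured, at a larger sum of 7129 to 10047 and 5126 to 7158 CPM. These lists do not settle what the GFP+ cells are. A CPM value is an expected count scaled to a common library size with TMM factors.

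Division of CPM by the kilobases of exon sequence of a gene (CPM per kb) allowed levels to be compared between genes. The inhibitory subunit gene Gnai2 led the set with 291 ± 46.4 CPM per kb (SD, n = 10 libraries), followed by Gnb2 with 169 ± 18.0, Adrbk1 with 138 ± 13.8, Arrb2 with 123 ± 44.0, Rgs10 with 107 ± 15.1 and Gnb1 with 104 ± 12.03 CPM per kb. Arrb2 varied most of these, and its SD covered the means of its neighbours Adrbk1 and Rgs10; Rgs10 and Gnb1 lay within each other's SD. Gnas, which encodes Gαs, reached 59.3 ± 7.74 CPM per kb and Rgs2 58.7 ± 13.7, again not separated. Near the low end of the genes with enough counts for testing, Gnb4 averaged 0.628 CPM per kb over all libraries. The order rests on the length used: over the longest transcript of each gene, Rgs10 took the third place and Gnas the sixth.

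Within each class a few genes supplied most of the RNA. Gnai2 made up 52.2 to 53.2% of the summed Gα CPM per kb in C57BL/6J and 54.8 to 59.8% in Rag2-/-γc-/- libraries, with no overlap. Gnas gave 11.1 to 13.8% against 9.35 to 10.8%, again without overlap and in the other direction; over the longest transcript its mean share became 21.8% and 17.9%. Gnb2 and Gnb1 together left almost nothing for the other Gβ genes: their mean shares were 61.8% and 37.9%. Among Gγ genes, Gng2 held 58.5 ± 5.04% in C57BL/6J and 66.6 ± 7.45% in Rag2-/-γc-/- libraries (SD, n = 5 each), and these ranges overlapped. Shares within a class are not independent of each other, and no test was made on them.

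**Figure D1:**
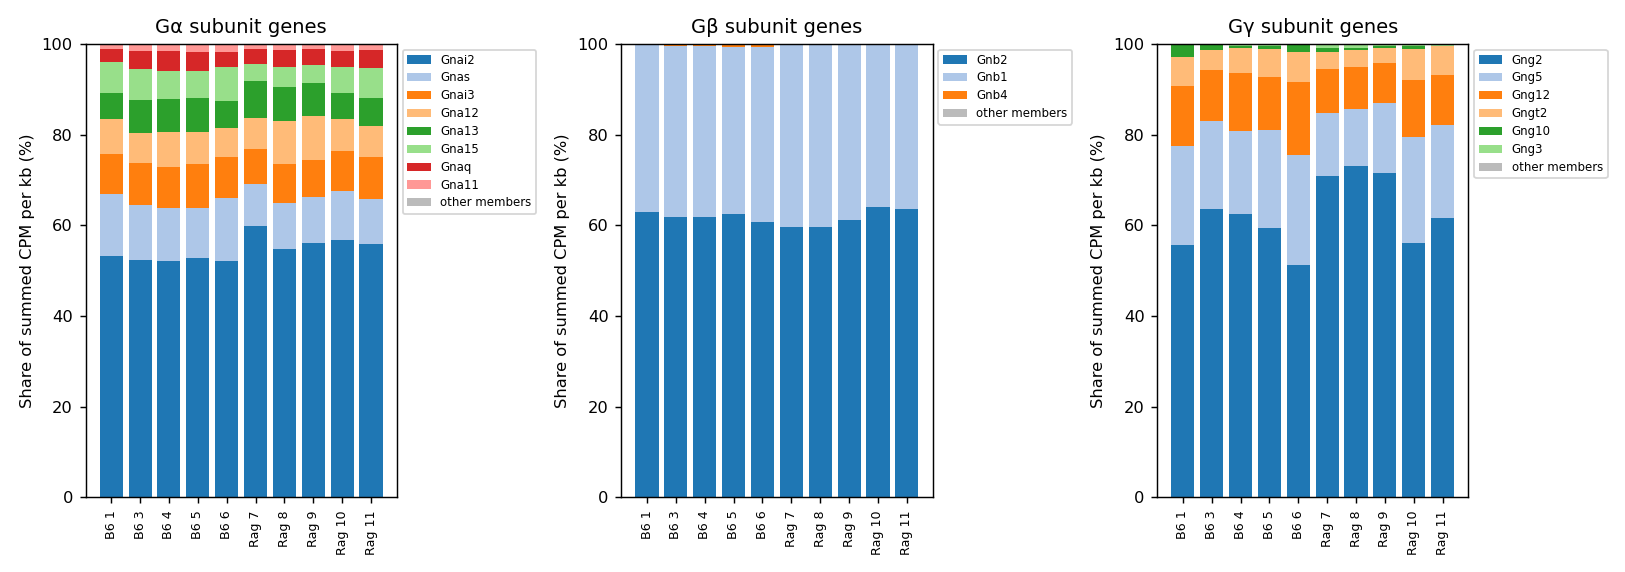
Stacked bars give, for each library, the share (%) of the summed CPM per kb of the Gα, Gβ and Gγ genes that each gene contributed; B6 stands for C57BL/6J and Rag for Rag2-/-γc-/- recipients, with the replicate number. Gnai2, Gnb2 and Gng2 fill the lower block of every bar, and Gnb4 is a thin band of at most 0.563%.

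To ask which of these genes differed with the immune status of the host, the 2 recipient groups were compared over all genes, and 29 of the 38 members had enough counts for the test. Gnb4 was higher in C57BL/6J recipients, Gng7 and Rgs2 were lower, and the other 26 did not pass an adjusted p of 0.05 in edgeR's quasi-likelihood test. That is 10.3% of the tested members, beside 7.79% of all 13966 genes tested (3.32% higher and 4.47% lower), so the share of calls in the set was near the background. DESeq2 called 2 members higher and 4 lower, beside 5.75% and 8.27% of all genes, adding Rgs3, Arrb2 and Gnai2; limma-voom with sample quality weights called 5 and 11, beside 23.7% and 23.0%. The median log2 difference of the members was -0.05, beside 0.00 for all genes. The ranges of the groups did not overlap for 3 members (Gnb4 and Rgs3 higher, Rgs2 lower), again 10.3%, beside 8.50% of all genes (4.13% higher and 4.37% lower). Log2 differences are C57BL/6J minus Rag2-/-γc-/- throughout, with their standard error (SE).

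**Figure D2:**
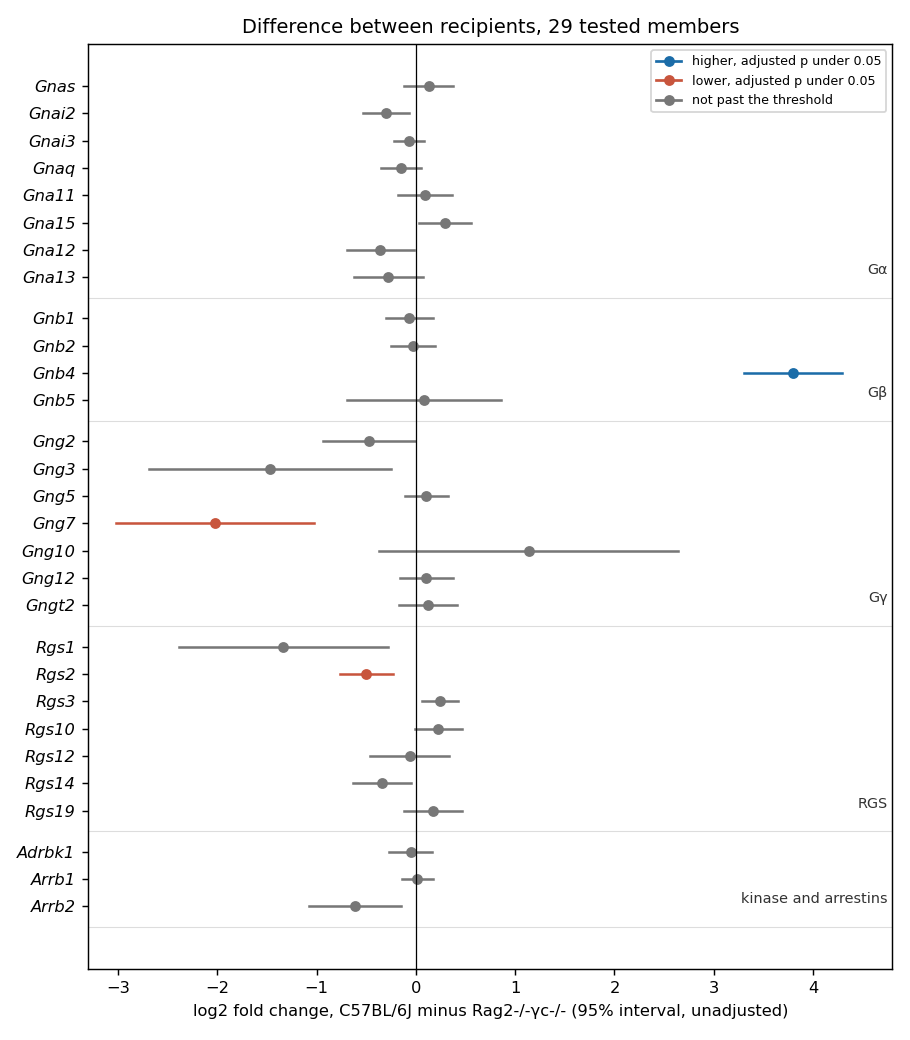
Points are the log2 fold change, C57BL/6J minus Rag2-/-γc-/-, of the 29 tested members by class, and bars the unadjusted 95% interval. Gnb4 stands alone at the right with 3.80; Gng7 at -2.02 and Rgs2 at -0.50 are the members past the threshold on the left, and most others lie within a narrow band about 0.

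Gnb4 encodes a Gβ subunit that dimerises with a Gγ, as do Gnb1 and Gnb2, and it gave the set's clearest difference. It lies on chromosome 3 (GRCm38, chr3:32580332-32616585, minus strand). The C57BL/6J libraries held 12.2 CPM (replicate 1), 13.7 (3), 14.4 (4), 14.3 (5) and 19.9 (6). The Rag2-/-γc-/- libraries held 0.661 CPM (7), 1.112 (8), 1.38 (9), 0.915 (10) and 1.32 (11). All 5 C57BL/6J libraries lay far above all 5 others, and libraries 7 to 9 did not part from 10 and 11 for this gene. The means were 14.9 ± 2.93 and 1.08 ± 0.294 CPM (SD, n = 5 each), a log2 difference of 3.80 ± 0.22 (SE; adjusted p = 1.18e-05, edgeR), or 13.9-fold. It passed the threshold in 20 of 20 alternative analyses, with log2 differences of 3.65 to 3.90.

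Since Gβ genes are close relatives, the sequences of their coding starts show how far reads can be told apart. The first 120 coding bases from GENCODE M21 on GRCm38 are given with the bases that differ from Gnb4 in capitals.
Gnb4: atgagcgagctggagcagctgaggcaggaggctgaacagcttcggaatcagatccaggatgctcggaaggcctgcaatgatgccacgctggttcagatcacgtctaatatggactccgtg
Gnb1: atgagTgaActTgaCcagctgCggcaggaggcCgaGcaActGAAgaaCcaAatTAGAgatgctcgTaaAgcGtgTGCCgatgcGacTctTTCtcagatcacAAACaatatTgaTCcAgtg
Gnb2: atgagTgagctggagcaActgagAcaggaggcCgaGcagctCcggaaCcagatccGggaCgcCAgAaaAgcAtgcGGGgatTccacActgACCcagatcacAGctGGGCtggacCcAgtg
In this stretch 37 bases of Gnb1 and 30 of Gnb2 differ from Gnb4. Over the whole coding sequence of 1020 bases Gnb4 was 77% identical to Gnb1 and 75.6% identical to Gnb2, with no identical run longer than 27 bases. The reads are 75 bases long, and no 75-base window of Gnb4 transcripts occurred in the transcripts of another gene. Gnb1 (433.7 ± 62.9 and 453.5 ± 41.6 CPM) and Gnb2 (571 ± 89.2 and 582 ± 19.8 CPM) did not pass the test, with 95% intervals of the log2 difference of -0.30 to 0.18 and -0.25 to 0.20. Gnb4 thus supplied 0.441% of the Gβ CPM per kb in C57BL/6J and 0.031% in Rag2-/-γc-/- libraries. Of the 7 tested genes within 500000 bases of Gnb4, 0 passed in edgeR's test, beside 7.79% of all genes. With so few genes, 0 is near that share. Of these 7, 1 had an unadjusted p under 0.05 in edgeR (DESeq2 called 1, limma-voom 0), and their log2 differences were -0.18 to 0.34. Gnb5, the atypical Gβ that pairs with RGS proteins of the R7 kind, was near 0.45 CPM in both groups (log2 difference 0.08 ± 0.36, adjusted p = 0.899, edgeR).

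Levels of markers listed for other cell types also differed between the hosts. In a bulk sample fewer cells of a type and less RNA per cell cannot be told apart. The summed level of 9 T cell markers was 60.4 to 115 CPM in C57BL/6J and 20.6 to 46.8 CPM in Rag2-/-γc-/- libraries. Cd8a made up most of it, also in the hosts without T cells (mean 71.0 and 28.9 CPM), so the sum cannot be read as T cell RNA. Cd3e averaged 1.22 and 0.015 CPM, and Cd2 was at 0 in all 5 Rag2-/-γc-/- libraries. Cd5 went the other way, with means of 1.43 and 2.83 CPM. For 7 B and plasma cell markers the ranges were 6.09 to 120 CPM and 2.51 to 3.72 CPM. C57BL/6J library 1, which had the 120 CPM, held the lowest Gnb4 level of its group. Library 6, which held the highest Gnb4 level, had the highest T cell marker sum (115 CPM) and dendritic cell marker sum (10047 CPM) of that group. Cd8a alone gave 107 CPM of the first sum and H2-Ab1 gave 5788 CPM of the second. For Cd3e library 6 (0.730 CPM) lay below library 1 (3.42 CPM), so the T cell markers did not follow Gnb4 alike. The sum of 5 plasmacytoid dendritic cell markers was 46.2 to 59.8 against 75.3 to 90.5 CPM, mainly through Tcf4 (mean 13.4 against 37.6 CPM), while Siglech was near 0 in both groups (0.233 and 0.145 CPM). The sum of 5 mast cell and basophil markers was 0.076 to 0.435 against 0.607 to 1.31 CPM and was mostly Fcer1a (mean 0.116 and 0.811 CPM); Cpa3, Mcpt8 and Ms4a2 were at or near 0 in both groups. Of the 6 leukaemic myeloid markers 1 was higher and 2 were lower in C57BL/6J: Kit was at 3.21 to 7.52 against 0.163 to 0.434 CPM, Cebpa at 1.03 to 4.96 against 9.38 to 34.9 CPM, and Cd34 at 98.6 to 169 against 202 to 489 CPM. The part of these differences in the results on the members was not tested.

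Of the 11 Gα genes, 8 were tested and 0 passed in edgeR, 3 of them with an unadjusted p under 0.05 (Gnai2, Gna15, Gna12); DESeq2 called 1 and limma-voom 0. Their median log2 difference was -0.11. Gnai2, the main Gαi of leukocytes, had 899.9 to 1096 CPM in C57BL/6J and 1063 to 1491 CPM in Rag2-/-γc-/- libraries, which overlap in library 1 of the former and libraries 10 and 11 of the latter. Its log2 difference was -0.30 ± 0.11 (SE; adjusted p = 0.105, edgeR), and it passed in DESeq2 (adjusted p = 0.0477). Gnai3, a second Gαi gene, varied little: its 10 libraries spanned 141 to 164 CPM. Gnas had 558 to 831 CPM in C57BL/6J and 566 to 690 CPM in Rag2-/-γc-/- libraries, which overlap. Of the Gq class, Gnaq lay at 99.0 to 136 CPM and Gna11 at 22.4 to 35.7 CPM over all libraries. Gna15, the blood-cell member of the Gq class, had 57.8 to 80.7 CPM in C57BL/6J and 52.7 to 69.9 CPM in Rag2-/-γc-/- libraries (log2 difference 0.30 ± 0.12, adjusted p = 0.151, edgeR). Gna12 shares 9.33% and Gnas 17.1% of their 75-base windows with other genes, so part of their counts is uncertain.

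Gng7 encodes a Gγ subunit known for its pairing with Gαolf in the striatum. It lies at chr10:80948624-81014945 (minus strand, GRCm38) and was the lowest-expressed of the 3 members past the threshold. The C57BL/6J libraries held 0.183 CPM (1), 0.197 (3), 0.279 (4), 0.218 (5) and 0.151 (6), from 6 to 11 counts each. The Rag2-/-γc-/- libraries held 1.09 CPM (7), 1.47 (8), 0.941 (9), 0.229 (10) and 0.481 (11), from 7 to 64 counts. Libraries 7, 8 and 9 were high, library 11 was intermediate, and library 10 lay within the C57BL/6J range, so the groups overlapped. The means were 0.206 ± 0.048 and 0.840 ± 0.492 CPM (SD, n = 5 each), a log2 difference of -2.02 ± 0.46 (SE; adjusted p = 0.0205, edgeR). Without libraries 7, 8 and 9 it was -0.79 (adjusted p = 0.573, edgeR) and without 10 and 11 it was -2.48. These omissions follow a split seen in the same data, so the larger value is no added support. The call was also lost without C57BL/6J library 6 (adjusted p = 0.0594), without library 8 (0.0547) or 9 (0.0504), and in limma-voom (0.0551).

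The other tested Gγ genes did not pass. Gng2, the most abundant, had 213 to 306 CPM in C57BL/6J libraries and 442, 480, 466, 224 and 267 CPM in libraries 7 to 11; 18% of its windows are shared with Gm48283. Gng5 (51.97 to 73.6 CPM), Gng12 (51.4 to 77.0 CPM) and Gngt2, a Gγ first known from cone photoreceptors (9.30 to 14.6 CPM), had overlapping groups and log2 differences of 0.10 to 0.12. Gng3, a Gγ of neurons, was scarce, at 0.031 to 0.609 CPM against 0.430 to 1.54 CPM, and 20.7% of its windows are shared with the opposite-strand gene Bscl2. Gng10 shares 70.9% of its windows with Gm20503, so its level of 0.076 to 4.55 CPM is uncertain.

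**Figure D3:**
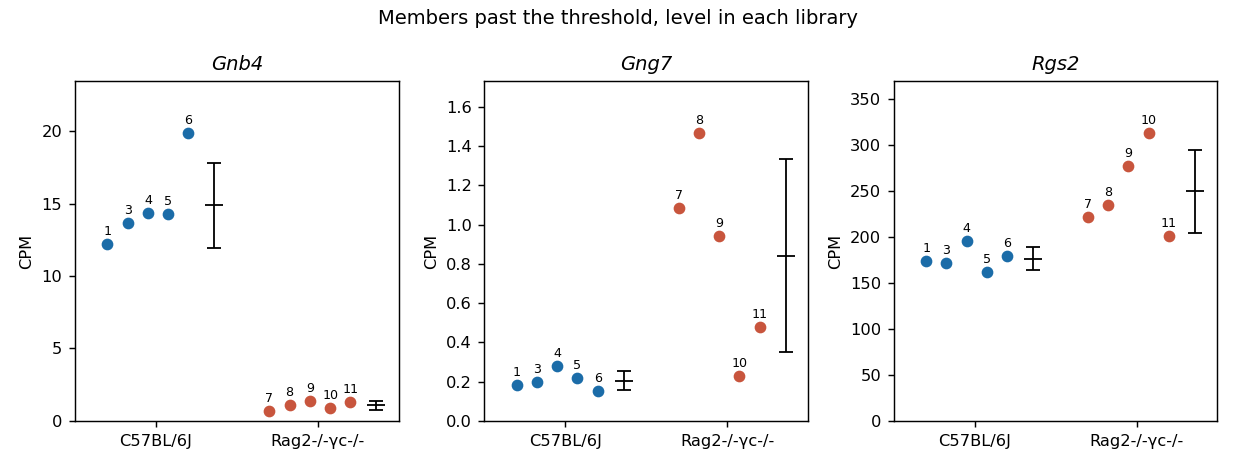
Points are the CPM of Gnb4, Gng7 and Rgs2 in each library, numbered by replicate, beside the mean with its SD (n = 5 per group). Gnb4 separates the groups from 1.38 to 12.2 CPM, Gng7 is high in libraries 7, 8 and 9 and at 0.229 CPM in library 10, and Rgs2 separates them from 195.8 to 200.5 CPM.

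Rgs2 encodes a small RGS protein that acts preferentially on Gαq and also restrains adenylyl cyclase; it lies at chr1:143999338-144004161 (minus strand, GRCm38). Its levels were 173 CPM (1), 171 (3), 195.8 (4), 162 (5) and 179 (6) in C57BL/6J libraries. In the Rag2-/-γc-/- libraries they were 221 CPM (7), 234 (8), 277 (9), 313 (10) and 200.5 (11). All 5 C57BL/6J libraries lay below all 5 others, by a gap between library 4 and library 11 that is small beside the spread, and library 10, low for Gng7, was the highest. The means of 176 ± 12.6 and 249 ± 45.3 CPM (SD, n = 5 each) gave a log2 difference of -0.50 ± 0.12 (SE; adjusted p = 0.0292, edgeR). The call was lost without any one of C57BL/6J libraries 3, 5 and 6 or libraries 8 and 9 (adjusted p 0.0535 to 0.0788), and without 7, 8 and 9 together (-0.54, adjusted p = 0.174).

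Rgs2 is known as a gene that cyclic AMP induces, so its promoter is shown. The 250 bases upstream of its start (RefSeq, GRCm38.p6, chr1:144004150-144004399, minus strand, read 5′ to 3′ toward the gene) carry matches to the cyclic AMP response element half-site TGACG, on either strand, in capitals.
Rgs2: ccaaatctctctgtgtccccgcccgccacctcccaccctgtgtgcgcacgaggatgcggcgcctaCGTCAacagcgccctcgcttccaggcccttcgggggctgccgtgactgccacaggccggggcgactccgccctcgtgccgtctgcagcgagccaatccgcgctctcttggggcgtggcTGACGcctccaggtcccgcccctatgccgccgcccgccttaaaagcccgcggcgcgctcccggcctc
The window held 2 such matches, and 17.7% of 32817 promoter windows of this length held at least 1. Promoters were found for 26 members, in 35 windows. Of these, 7 (20%) held TGACG, 2 (5.71%) the RUNX core TGTGGT (14% of all windows), and 1 (2.86%) the STAT motif TTCNNNGAA (7.01% of all windows), counting both strands. Windows of the same gene can overlap, as chr2:174327499-174327748 and chr2:174327518-174327767 of Gnas do, both with TGACG. The windows are therefore not independent. A match describes letters only.

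Of the 10 RGS genes, 7 were tested and 6 did not pass. Rgs1, which limits chemokine responses in lymphocytes, varied most: 16.2, 22.6, 51.6, 14.3 and 7.85 CPM in C57BL/6J libraries and 113, 42.0, 53.7, 34.1 and 39.9 CPM in libraries 7 to 11. Library 4 of C57BL/6J lay within the other group, and library 7 lay above all others. The log2 difference of -1.33 ± 0.48 (SE; adjusted p = 0.114, edgeR) passed without C57BL/6J library 4 (-1.89, adjusted p = 0.0246). Rgs3 was narrower, at 117 to 148 CPM in C57BL/6J and 105 to 114 CPM in Rag2-/-γc-/- libraries; the ranges did not overlap, yet the log2 difference of 0.24 ± 0.08 did not pass (adjusted p = 0.0932, edgeR; 0.0343 in DESeq2), and 10.2% of its windows are shared with Gm5763. Rgs10, the most abundant RGS gene per kb, had 154 to 231 CPM against 156 to 176 CPM, and Rgs12 lay at 6.197 to 12.99 CPM over all libraries. Rgs14 (64.6 to 89.8 against 81.3 to 116 CPM) and Rgs19 (93.0 to 117 against 72.3 to 113 CPM) overlapped as well.

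In the receptor-silencing machinery the kinase and the arrestins differed in how much they varied. Arrb1 was nearly level, at 164 to 190 CPM over the 10 libraries, with a 95% interval of the log2 difference of -0.14 to 0.17. Adrbk1, which phosphorylates active receptors, lay at 545 to 724 CPM, with an interval of -0.27 to 0.17. Arrb2 had 261, 315, 334, 247 and 226 CPM in C57BL/6J and 620, 448, 471, 266 and 311 CPM in libraries 7 to 11. Only libraries 7, 8 and 9 lay above the C57BL/6J range for this gene, and its log2 difference of -0.61 ± 0.21 did not pass (adjusted p = 0.103, edgeR; 0.0429 in DESeq2).

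Libraries 7, 8 and 9 also lay apart from the others by rank in further members. In 10 of the 29 tested members (34.5%) libraries 7, 8 and 9 all lay above the other 7 libraries, beside 16.5% of all genes tested; these were Gnai2, Gnai3, Gnaq, Gna12, Gna13, Gng2, Gng3, Gng7, Rgs14 and Arrb2. In 3 members (10.3%), Gna15, Rgs3 and Rgs19, libraries 7, 8 and 9 all lay below the other 7, beside 16.5%. These counts rest on rank alone, and some gaps were slight. For Gnaq library 9 held 126.6 CPM against 125.8 CPM in C57BL/6J library 4. For Gnai3 library 8 held 159.4 CPM against 157.2 CPM in C57BL/6J library 1. Without libraries 10 and 11, 4 of 30 tested members were called higher and 10 lower, where 19.3% and 17.4% of all genes were called. Without libraries 7, 8 and 9, Gnb4 alone was called, where 1.01% and 0.870% of all genes were called. The log2 difference of Arrb2 was -0.89 in the first case and -0.06 in the second. That of Gng2 was -0.77 and 0.14, and that of Gna13 -0.49 and 0.14. Gna12, of the same class as Gna13, gave -0.56 and 0.02, and Rgs14 -0.50 and -0.05. In these members libraries 7, 8 and 9 lay above the rest, so a larger difference without 10 and 11 follows from that order. The values describe the split and are no test of it. Libraries 7, 8 and 9 were known from earlier results of these data to stand apart, and the labels give no batch by which to separate them.

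**Figure D4:**
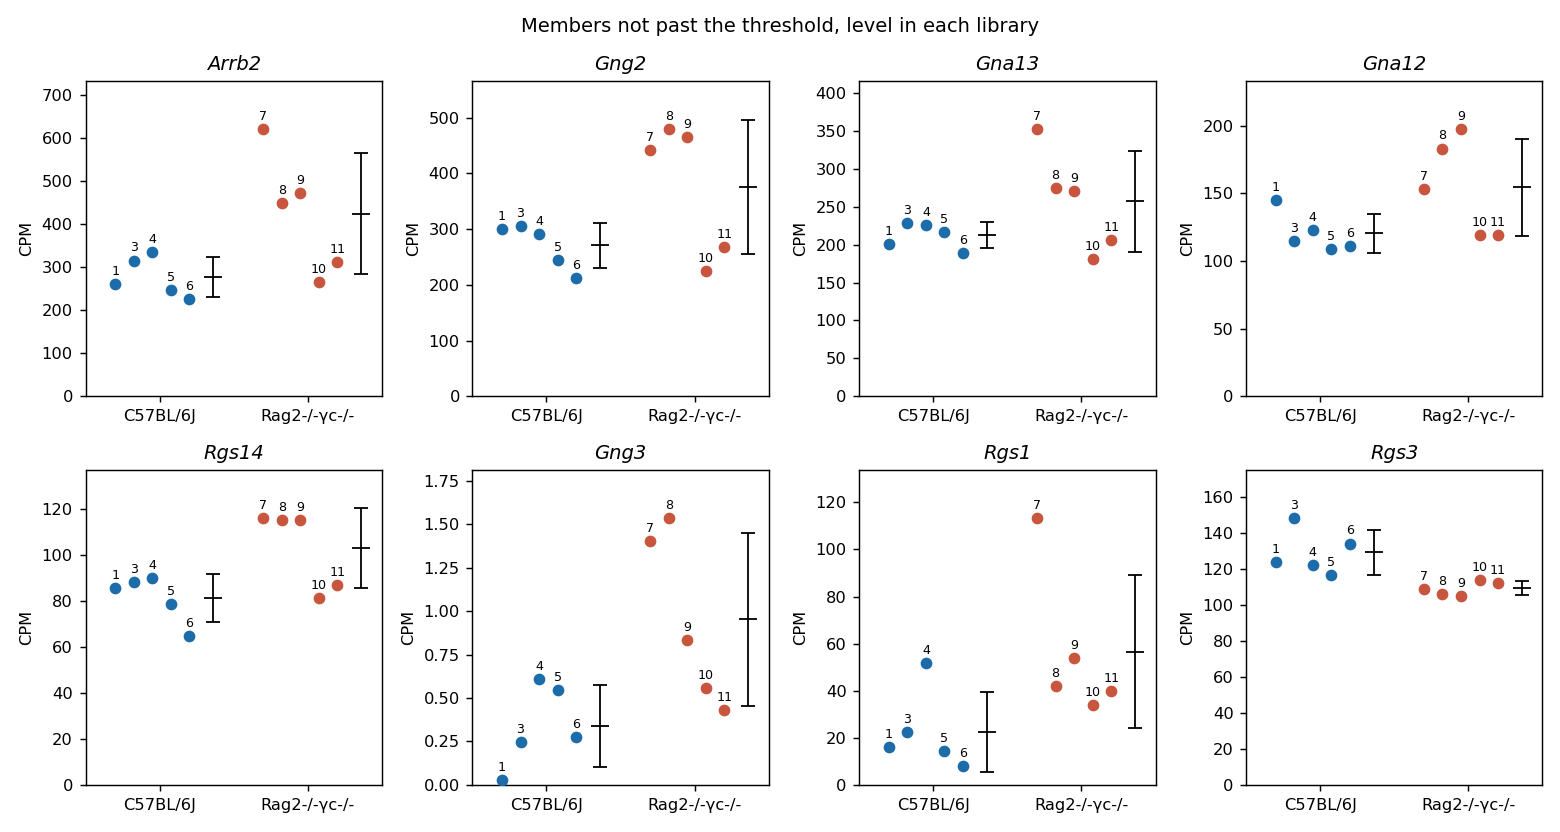
Points are the CPM in each library, numbered by replicate, of 8 members that did not pass the threshold, beside the mean with its SD (n = 5 per group). For Arrb2, Gng2, Gna13, Gna12 and Rgs14, libraries 7, 8 and 9 lie above the rest while 10 and 11 lie near the C57BL/6J libraries; Rgs1 is highest in library 7 (113 CPM), and Rgs3 is lower in all 5 Rag2-/-γc-/- libraries.

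The remaining 9 members had too few counts for the test. Rgs16, an RGS protein that activated lymphocytes and myeloid cells induce, had 30 counts over the C57BL/6J libraries (4 of 5 with any) and 2 over the Rag2-/-γc-/- libraries (1 of 5). The ratio of their rates was 15.05 (exact 95% interval 3.82 to 130, counting error only). Without a count filter the adjusted p of Rgs16 was 0.0632 in edgeR. Its C57BL/6J counts were 11 (1), 8 (3), 4 (4), 0 (5) and 7 (6). Library 1 was also the highest of its group in Cd3e (3.42 CPM) and library 5 the lowest (0.152 CPM). The part of T cell RNA in the Rgs16 counts was not tested. Rgs18, an RGS of megakaryocytes and platelets, had 32 and 43 counts, and Rgs9, an RGS of the retina and striatum, 22 and 17. Gnao1 (3 and 10), Gnb3 (8 and 12) and Gng11 (8 and 6) had a few counts in each group. Gnai1 and Gnaz had 0 counts in C57BL/6J and 1 in Rag2-/-γc-/- libraries, and Gng8 had 1 and 0. A count of 0 allows up to 3 counts, which is 0.051 to 0.109 CPM by library (counting error only).

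Genes that act beside the members were taken from 7 lists of further family members, chaperones, effectors and leukocyte receptors. Of 182 genes found, 126 were tested, and 7 were higher and 8 lower in C57BL/6J (all genes tested: 3.32% and 4.47%), with a median log2 difference of -0.08, so 15 were called; without libraries 7, 8 and 9 there were 4, among them Plcb4, Trio and F2rl2, and the other named calls below were lost. Neither the 7 tested family members outside the set nor the 16 tested chaperones, dissociation inhibitors and lipid-modifying enzymes held a gene past the threshold; their medians were 0.11 and -0.09. Nor did the 8 tested effectors of Gβγ dimers (median -0.15). At an unadjusted p under 0.05 in edgeR these lists held 1, 3 and 2 genes; DESeq2 called 1, 2 and 0, and limma-voom 0 in each. The smallest p in these 3 lists belonged to the receptor kinase gene Grk6 (257 ± 21.0 and 211 ± 14.9 CPM; adjusted p = 0.0657, edgeR), the Gβ chaperone relative Pdcl3 (82.2 ± 11.3 and 62.3 ± 7.41 CPM; 0.0552) and Elmo1, a Gβγ-linked activator of Rac (123 ± 9.16 and 145 ± 14.9 CPM; 0.125).

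In the Gq and phospholipase C list 3 of 18 tested genes were higher and 0 lower in edgeR, beside 3.32% and 4.47% of all genes, with a median of 0.32. Plcb4, a phospholipase C that Gαq activates, had 11.2 to 20.9 CPM in C57BL/6J and 1.42 to 6.33 CPM in Rag2-/-γc-/- libraries (log2 difference 1.67 ± 0.35, adjusted p = 0.0161, edgeR). Trio, an exchange factor that Gαq switches on, had 7.61 to 18.2 against 2.29 to 7.55 CPM (1.46 ± 0.32, adjusted p = 0.018, edgeR). Neither gene's groups overlapped, though for Trio the nearest libraries held 7.61 and 7.55 CPM. Both genes were named for their small p, so the separation is no added support. Both passed in 20 of 20 alternatives. Prkcq, protein kinase C-θ of T cells, had 1.03 to 3.57 against 0.196 to 0.434 CPM (2.69 ± 0.38, adjusted p = 0.00158, edgeR). It was highest in C57BL/6J library 1, the library richest in Cd3 and B cell marker RNA. Library 5, lowest of its group in Cd3e (0.152 CPM), came next with 2.39 CPM of Prkcq, and library 6 (Cd3e 0.730 CPM) was lowest. The part of T cell RNA in this call was not tested.

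Of 15 tested cyclic AMP effectors, the phosphodiesterase gene Pde4a alone passed: it had 14.7 to 27.4 CPM in C57BL/6J and 27.6 to 44.3 CPM in Rag2-/-γc-/- libraries (log2 difference -0.68 ± 0.18, adjusted p = 0.0417, edgeR). This call was lost without any one of C57BL/6J libraries 1, 3, 4 and 6 or libraries 7, 8, 9 and 11. Of 10 tested genes of the Gα12/13 effector list, 2 were lower. Rhob, a small GTPase, had 8.40 to 14.8 against 21.1 to 26.8 CPM (-1.05 ± 0.16, adjusted p = 0.00311, edgeR), with no overlap and with libraries 10 (23.1 CPM) and 11 (21.1 CPM) near 7 to 9. Akap13, a guanine nucleotide exchange factor, had 140 to 190 against 173 to 299 CPM (-0.61 ± 0.16, adjusted p = 0.041, edgeR), with library 10 inside the C57BL/6J range; its call was lost in limma-voom and without any one of C57BL/6J libraries 1, 4, 5 and 6 or libraries 7, 8 and 9.

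Among 52 tested leukocyte receptors that couple to G proteins, 4 were higher and 5 lower, beside 3.32% and 4.47% of all genes, with a median of -0.23. P2ry2, a receptor for extracellular ATP and UTP, had 1.07 to 2.14 CPM in C57BL/6J and 3.04 to 10.3 CPM in Rag2-/-γc-/- libraries (-1.84 ± 0.31, adjusted p = 0.00513, edgeR). Gpr84, a receptor for medium-chain fatty acids, had 0.252 to 1.01 against 1.52 to 4.58 CPM (-2.09 ± 0.41, adjusted p = 0.0114, edgeR). F2rl2, a thrombin receptor of the protease-activated kind, had 28.5 to 51.9 against 8.40 to 23.2 CPM (1.44 ± 0.28, adjusted p = 0.0102, edgeR) and passed in 20 of 20 alternatives. Cxcr6, the chemokine receptor for Cxcl16 on T and NK cells, had 0.604 to 1.58 against 0.126 to 0.470 CPM (1.77 ± 0.39, adjusted p = 0.0193, edgeR). The Cxcr6 call was lost without library 7 or library 8. The groups did not overlap for any of these 4, beside 8.50% of all genes that did not overlap. Like the effectors above, these receptors were named for their small p, so the separation is no added support. Further calls included Cxcr5, higher, and Hrh2, Adrb1 and C3ar1, lower. Cxcr5 reached 7.85 CPM in C57BL/6J library 1, where B cell markers were highest, and 0.500 to 1.84 CPM in the other 4. That library also stood apart in its mitochondrial share (1.34%), and the part of B cell RNA in the Cxcr5 call was not tested.

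**Figure D5:**
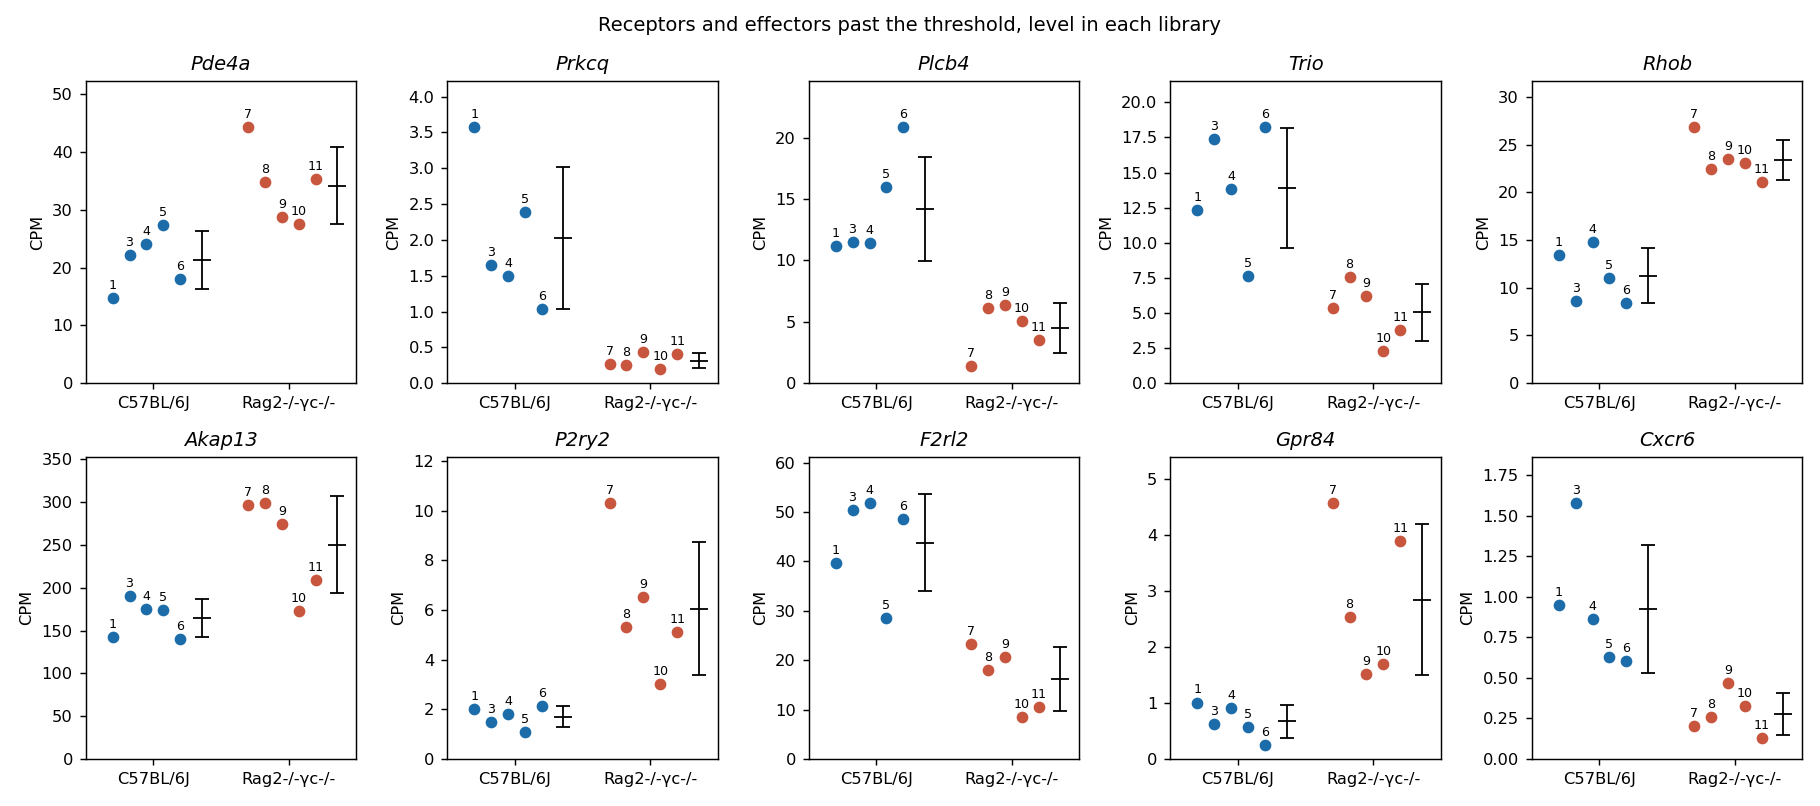
Points are the CPM in each library, numbered by replicate, of the 10 named receptor and effector genes past the threshold, beside the mean with its SD (n = 5 per group). Prkcq, Plcb4, Trio, F2rl2 and Cxcr6 are higher in the C57BL/6J libraries, Pde4a, Rhob, Akap13, P2ry2 and Gpr84 lower, and for Akap13 library 10 (173 CPM) lies among the C57BL/6J values.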

How the data were processed

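Expected counts per gene of 10 poly(A) RNA libraries, as the authors deposited them, were the starting point (NEBNext Ultra, single reads of 75 bases; symbols and positions are from the same table). The submitters' processing notes name cutadapt 1.11, STAR 2.5.2a, RSEM 1.2.30, edgeR and build GRCm38; what each did, the annotation release and strand handling were not given in the sources used here. Reads that fit several genes are divided in expected counts, and reads of opposite-strand genes may not be told apart.

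Expected counts were rounded to whole numbers. Genes passing filterByExpr (minimum count 10, minimum total 15) were tested with edgeR 4.0.16 in R 4.3.3: TMM scaling, quasi-likelihood fit over all 10 libraries, Benjamini-Hochberg adjustment over 13966 genes, threshold 0.05. Scripts were tested on simulated counts. Libraries were grouped by their labels, columns by their titles. Nothing says whether replicates share a primary leukaemia, so p-values measure the spread between these samples. Alternatives included RLE and upper-quartile scaling, DESeq2 1.42.0, limma-voom (limma 3.58.1) with and without sample weights, other filters, robust estimation and left-out libraries. Lengths and shared windows came from GENCODE M21, promoters from RefSeq.

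Members past the threshold are given with every library's value, the others by ranges and counts; a few of these others, shown by library, were chosen after their values were seen. Of each pathway list, up to 4 genes past the threshold with the smallest adjusted p are named, or the 1 with the smallest p; 4 further receptors are named in addition, and 1 counted receptor is not reported here. Members and lists were chosen with earlier results of these data known.

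Marker lists in CPM, C57BL/6J then Rag2-/-γc-/-, not named in the results: NK cell 18.8 to 23.8 and 8.40 to 21.1; erythroid 14.9 to 144 and 73.9 to 237; megakaryocyte and platelet 7.57 to 13.1 and 2.32 to 9.56; granulocyte 3.63 to 27.8 and 5.26 to 28.5; monocyte and macrophage 370.2 to 617 and 427 to 743; endothelial and stromal 4.44 to 10.2 and 2.68 to 13.1.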

Additional observations from a re-analysis of the deposited data

Results flagged for a closer look

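In 84 group-wise checks of named genes with 5 libraries each, 5 had 1 library far from the other 4 of its group (Dixon's ratio above 0.71). Chance gives about 1 in 20 such groups. Gna11 was 22.4 CPM in C57BL/6J library 1 and 32.2 to 35.7 CPM in the other 4. Elmo1 was 139 CPM in the same library and 117 to 121 CPM in the others. Gnb4 was 19.9 CPM in C57BL/6J library 6 and 12.2 to 14.4 CPM in the others. Rgs12 was 7.60 CPM in C57BL/6J library 3 and 9.46 to 10.1 CPM in the others. In Rag2-/-γc-/- library 7, Rgs1 reached 113 CPM, while libraries 8 to 11 held 34.1 to 53.7 CPM of it.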

How the results depend on the processing

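No paired analysis was possible because the replicate numbers of the 2 groups are all different. Genes called over the whole table numbered 1088, and 1958 in DESeq2, 6523 in limma-voom with sample quality weights, 5304 without libraries 10 and 11, 275 without libraries 7, 8 and 9, and 579 to 2399 when 1 library was left out (lowest without C57BL/6J library 6, highest without library 10). Members called higher numbered 1, and 2, 5 and 4 in the first 3 of these settings and 1 in each single omission. Members called lower numbered 2, and 4, 11, 10 and 0 in the first 4, 1 in limma-voom, 1 with a filter of 1 CPM in 5 libraries, which leaves Gng7 untested, and 0 to 6 in the single omissions (0 without C57BL/6J library 6 or libraries 8 or 9, 1 without C57BL/6J library 3 or 5, 6 without library 10). Pathway genes called numbered 15, and 29, 64, 52 and 4 in the first 4 settings and 8 to 30 in the single omissions. The 3 members called in the main analysis kept their sign in every setting in which they were tested. Among members called in another setting, Gng2, Gna12, Gna13, Rgs19 and Gnb1 had the opposite sign without libraries 7, 8 and 9. The cause of these changes was not tested; the omissions also leave fewer libraries. Low counts limit Gng7, Gng3, Gng10 and Rgs16.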
